A study of Mus musculus with 2 samples.

Results

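Microexons are exons so short that the splicing machinery on either side of them has little room to pair up, and many depend on nearby regulatory sequences to be recognised at all. In neurons a program of frame-preserving microexons is switched on, in part by the activator SRRM4 (nSR100), and places a few amino acids into adhesion molecules, synaptic scaffolds and membrane-trafficking proteins. PTBP1, the polypyrimidine tract binding protein, is expressed in most cells other than neurons, binds pyrimidine-rich stretches of introns beside exons, and is best known as a repressor of neuronal exons.

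The 649 microexons described here were exons of 30 nucleotides or less which the exon database of SpliceTrap, the program that quantified the exons, lists as constitutive, that is, always included. Each was the middle exon of a constitutive-class trio, meaning 3 consecutive exons of a database transcript, and none was the middle exon of any trio of the cassette class, in which the database knows a skipped form. The trio with the most reads stood for each exon, and trios with fewer than 20 reads in either library were left out, which kept 649 of 2111 exons. Constitutive-class exons of every size that met the same minimum numbered 107173. Read number alone chose the members; neither the level of inclusion nor its change was used. At the limit, 4 exons with 20 reads in the shallower library lay just inside and 4 with 19 reads just outside, all with no skipping read. By size, 17 of the 96 exons of exactly 30 nucleotides and 10 of the 80 of 31 nucleotides had 5 or more skipping reads.

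Both libraries came from N2A cells, a mouse neuroblastoma line, transfected with lipid complexes and collected after 3 days. The control group had received a control shRNA (shControl) and the Ptbp1_knockdown group an shRNA against Ptbp1 (shptbp1). Each group was 1 strand-specific paired-end library of 100-base reads, so no difference below has a replicate check. The tests compare the reads of these 2 libraries and not the conditions, and their intervals cover counting error only, since reads amplified by PCR are not independent molecules. Transfection was transient, and the share of cells that took up the shRNA was not given in the sources used here.

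Ptbp1 itself was lower in the knockdown library, with a log2 FPKM ratio of -1.61 (1 library per group), while the median over 15317 genes measured in both libraries was -0.04. In such bulk RNA, fewer cells with a transcript and less of it per cell cannot be told apart. Its paralog Ptbp2, the neuronal counterpart, was at 0.93. The activator Srrm4 was at 0.02, Srrm3 at -0.01 and Rbfox2, which promotes many neuronal exons, at 0.05. Rbfox1 was listed at 0 in both libraries and Rbfox3 lay close to 0 in both. Of 12 neuroblastoma or neuron markers, 10 were above the library's median gene in both libraries. Nefl and Nefm lay close to 0. Markers of fibroblasts, astrocytes and muscle lay below that median, apart from Acta1. Of the immune markers, Cd3e was at 0 in both libraries and Ptprc at or close to 0, and Cd68 was above the median in the control library alone, where its Cufflinks gene held 4 gene symbols joined together. Their part in the results below was not tested. The SpliceTrap tables held 74382387 junction reads for the control and 58295142 for the knockdown library.

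The 7 exons whose inclusion changed beyond the counting error of their junction reads are shown with 60 bases of upstream and 20 bases of downstream intron, because the results below return to the intron before them. All letters are from the reference genome NCBIM37 (mm9), on the strand of the gene, 5′ to 3′, with the exon in capitals, and the position of each exon is given with its values.

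Fnbp1 15: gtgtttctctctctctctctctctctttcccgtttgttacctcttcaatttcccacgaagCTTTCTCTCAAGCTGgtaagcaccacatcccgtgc

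Ppfia3 27: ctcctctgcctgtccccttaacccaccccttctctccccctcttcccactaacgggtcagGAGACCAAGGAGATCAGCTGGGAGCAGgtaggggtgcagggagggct

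Lphn2 12: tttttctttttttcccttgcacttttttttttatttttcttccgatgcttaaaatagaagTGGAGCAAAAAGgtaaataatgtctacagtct

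L1cam 12: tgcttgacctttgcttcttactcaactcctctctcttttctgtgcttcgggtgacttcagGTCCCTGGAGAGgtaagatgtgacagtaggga

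Clasp2 24: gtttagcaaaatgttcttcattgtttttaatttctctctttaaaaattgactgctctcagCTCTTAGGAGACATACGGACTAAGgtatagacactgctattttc

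Ssr1 15: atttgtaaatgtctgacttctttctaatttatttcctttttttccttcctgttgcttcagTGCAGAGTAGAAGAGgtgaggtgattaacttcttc

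L1cam 15: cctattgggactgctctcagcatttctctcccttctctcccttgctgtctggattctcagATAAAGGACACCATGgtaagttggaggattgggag

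The same stretch of 2 members that were skipped in part but did not pass the test is shown for contrast, both picked after their values were seen: the exon of Acaca, acetyl-CoA carboxylase, and that of Mapk12, the kinase p38gamma (chr15:88965857-88965886, minus strand).

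Acaca 24: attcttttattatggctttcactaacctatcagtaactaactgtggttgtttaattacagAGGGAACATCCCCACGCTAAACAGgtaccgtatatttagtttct

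Mapk12 30: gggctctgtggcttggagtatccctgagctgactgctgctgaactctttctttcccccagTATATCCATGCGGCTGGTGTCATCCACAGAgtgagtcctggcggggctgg

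Of the 60 upstream bases shown, 48 were pyrimidines before the Fnbp1 exon, 47 before Ppfia3, 45 before Lphn2 and Ssr1, 44 before both L1cam exons and 38 before Clasp2. There were 36 before Acaca and 37 before Mapk12, close to the 38 before Clasp2. Some members that did not pass also lay behind pyrimidine-rich introns, and the following were named after their values were seen. In the 100 bases upstream, the 30-nucleotide exons of Arhgap26 and Vegfa had 70% and 65% pyrimidines, and both introns held TCTCT. These exons had 281 and 78 skipping reads over both libraries.

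For most members skipping was not detectable or rare. In 371 of the 649 no read joined the neighbouring exons of the trio across the microexon, and in 315 of these no read of any database junction crossed it. A further 171 had 1 to 4 skipping reads. Among the deepest members without a skipping read was the 16-nucleotide exon of Hnrnpk, an RNA-binding protein, with 12268 inclusion reads over both libraries, so that a count of 0 allows a skipping share of up to 0.0245%. In 151 of the 371 the limit was 1% or less. The Hnrnpk exon was picked after its values were seen. The median over the 371 was 204 inclusion reads over both libraries.

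Skipping reads were nevertheless more common here than in longer constitutive-class exons. At least 5 skipping reads over both libraries were found in 107 members (16.5%), against 9.86% of all constitutive-class exons and 9.82% of those over 30 nucleotides, although the members were covered less deeply, with a median of 359 trio reads in the control library against 815 for the longer exons. One or more skipping reads occurred in 278 members (42.8%), against 32.9% of all. Since the minimum was set on the sum, 60 of the 107 had 5 skipping reads in each library, 13 in the control alone, 14 in the knockdown alone and 20 only when both were added. The 107 are not all separate. The overlapping exons of 26 and 30 nucleotides in Ppfia2 share their 21 skipping reads. The 30-nucleotide exons of 2210404J11Rik, 9030025P20Rik and Gm3435 had 13 skipping reads each and equal pyrimidine shares upstream, and whether their reads are the same was not tested. The 5 members with the most skipping reads, in Ssr1, L1cam (12 nucleotides), Fnbp1, Clasp2 (24 nucleotides) and Lphn2, held 55.2% of the skipping reads of the 107. GENCODE has a skipping transcript for 16 of the 107. The 3-nucleotide member in Dock9, named after its values were seen, had 22 skipping reads. It is not in the annotation, and its introns end in TT and GA in place of GT and AG. Whether this member is a true exon was not tested. It counts below among the members higher by 5 points, the shortest exons and the sizes divisible by 3.

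Among the members, inclusion was higher in the knockdown library more often than lower. Percent spliced in (PSI) is the share of the trio's transcripts that contain the middle exon, taken from SpliceTrap's corrected inclusion ratio. PSI was higher in the knockdown library by 5 points or more in 41 members (6.32%) and lower by 5 points or more in 12 (1.85%), while 1.24% of all constitutive-class exons with 20 reads were higher and 1.44% lower. Among the 107 members with 5 skipping reads, 25 were higher (23.4%) and 4 lower (3.74%), against 4.76% and 7.26% of the 10569 constitutive-class exons with that many skipping reads. The median change over the 107 was 0.1 points, against -0.1 points over those 10569, and 53 of the 107 stood above a PSI of 95 in the control library. Of the 46 members with a control PSI of 5 to 95, 21 were higher (45.7%) and 4 lower (8.7%) by 5 points, against 22.4% and 20.1% of all constitutive-class exons in that range.

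**Figure D1:**
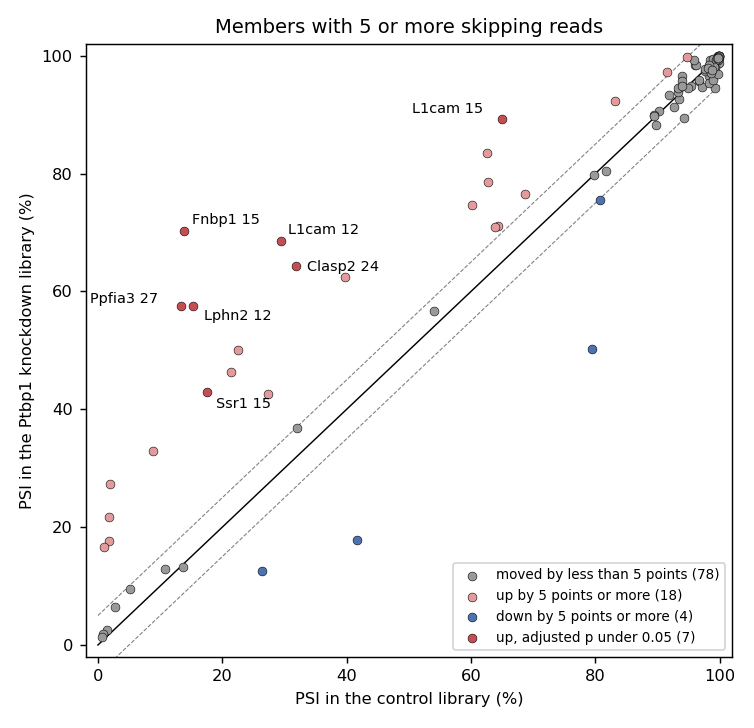
PSI in the control library (x axis, %) against PSI in the Ptbp1 knockdown library (y axis, %) for the 107 members with 5 or more skipping reads, 1 point per exon, with dashed lines at 5 points above and below equality. The points that leave the dashed band lie mostly above it (25 against 4), and the 7 with an adjusted p under 0.05 are named.

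Junction reads allowed an error to be attached. For each exon the inclusion junction with more reads was set against the skipping junction, and junction PSI is the share of those reads that include the exon. By a two-sided Fisher exact test on the reads, with Benjamini-Hochberg adjustment over all 10569 exons, 7 members had more inclusion in the knockdown library (6.54%, against 0.52% of all tested) and 0 had less (against 1.71% of all tested). At an unadjusted p under 0.05 there were 10 with more and 6 with less, against 302 and 1111 of the 10569. The median junction change over the 107 was -0.027 points. The 7 exons lie in Fnbp1, Ppfia3, Lphn2, L1cam (2 exons), Clasp2 and Ssr1, and in each the 95% intervals of the 2 libraries did not overlap.

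The largest difference among the 7 was in Fnbp1, formin binding protein 1, an F-BAR protein that links curved membrane to actin assembly. Its 15-nucleotide exon (chr2:30900402-30900416, minus strand, coding, exon 12 of 18 in the longest GENCODE transcript that holds it) had 40 inclusion and 240 skipping reads in the control library against 230 and 99 after knockdown. SpliceTrap can give 1 junction different counts in different trios, and the largest for this skipping junction were 254 and 107. Junction PSI in the trio was 14.3% (95% Wilson interval 10.7 to 18.9) in the control and 69.9% (64.7 to 74.6) in the knockdown library. The exon thus went from mostly skipped to mostly included, a difference of 55.6 points (95% Newcombe interval 48.7 to 61.6, Fisher exact adjusted p = 1.8e-42). Its close relative Fnbp1l has a 15-nucleotide exon at a like place (chr3:122255054-122255068, minus strand, exon 11 of 16), and 8 of its 15 bases are identical to those of the Fnbp1 exon. That exon had 0 inclusion and 12 skipping reads in the control and 8 inclusion and 26 skipping reads in the knockdown library, a difference of 23.5 points whose interval held 0 (-3.14 to 40, unadjusted Fisher exact p = 0.0898). With every database junction at or across it counted, the difference was 1.64 points.

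Fnbp1l 15: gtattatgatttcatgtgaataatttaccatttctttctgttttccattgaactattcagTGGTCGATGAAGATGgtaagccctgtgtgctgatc

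The Fnbp1l intron is shown because it lacks the run of CT repeats that precedes the Fnbp1 exon: 38 of its 60 bases were pyrimidines, against 48 in Fnbp1.

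Both microexons of L1cam rose. L1CAM is an adhesion molecule of growing axons, and its short exons are known as neuronal exons that other cell types skip. The 12-nucleotide exon (chrX:71100991-71101002, minus strand, coding, exon 29 of 30) had 298 inclusion and 632 skipping reads in the control library against 845 and 360 in the knockdown library. It was mostly skipped in the control, at 32% (29.1 to 35.1), and mostly included in the knockdown library, at 70.1% (67.5 to 72.6), a difference of 38.1 points (34 to 41.9, adjusted p = 1.03e-65 by Fisher's exact test). The 15-nucleotide exon near the start of the gene (chrX:71112361-71112375, exon 3 of 30) had 302 inclusion and 162 skipping reads against 493 and 65. It was already the major form in the control library, at 65.1% (60.6 to 69.3), and stood at 88.4% (85.4 to 90.8) in the knockdown library. The difference was 23.3 points (18.1 to 28.3, adjusted p = 7.53e-16 by the same exact test). The log2 FPKM ratio of the gene as a whole was 0.03.

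Among the liprins-alpha, scaffold proteins of the presynaptic release site, Ppfia3 passed the test. Its 27-nucleotide exon (chr7:52598923-52598949, minus strand, coding, exon 23 of 30) had 7 inclusion and 30 skipping reads in the control library against 39 and 18 after knockdown. Junction PSI moved from 18.9% (9.48 to 34.2) to 68.4% (55.5 to 79), by 49.5 points (29.5 to 63.7, adjusted p = 0.000593 by Fisher's exact test). These are few reads, and the interval is the widest of the 7. Ppfia1 has a 27-nucleotide exon at the matching place (chr7:151674596-151674622, minus strand, exon 24 of 31), with 18 of 27 bases identical to the Ppfia3 exon.

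Ppfia1 27: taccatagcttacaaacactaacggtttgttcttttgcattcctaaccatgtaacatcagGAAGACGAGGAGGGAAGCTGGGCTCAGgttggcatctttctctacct

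Its sequence is shown because the related exons stand behind unlike introns, with 35 of 60 upstream bases pyrimidines in Ppfia1 against 47 in Ppfia3. The Ppfia1 exon had 14 inclusion and 23 skipping reads against 24 and 10, a difference of 32.8 points (9.54 to 51.4). It did not pass after adjustment (unadjusted p = 0.00862, adjusted p = 0.155 by Fisher's exact test), and with every junction counted the difference was 11.4 points. Ppfia2, another liprin-alpha, carries a 30-nucleotide exon (chr10:106341873-106341902) with 25 inclusion and 14 skipping reads against 20 and 7, and a 26-nucleotide variant within it that shares the same skipping reads. For the 30-nucleotide form the difference was 9.97 points, and the interval from -12.9 to 30.2 held 0. Ppfia1 and Ppfia3 differed in the level of the whole gene, with log2 FPKM ratios of -0.71 and 0.31.

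The exon in Lphn2, the gene of latrophilin 2, an adhesion receptor coupled to G proteins, is the only one of the 7 without an entry in the GENCODE annotation. It has 12 nucleotides (chr3:148523391-148523402, minus strand) and lay inside the gene, between annotated exons. Cufflinks transcripts contained it in both libraries, 4 in the control and 3 in the knockdown library. Inclusion and skipping reads were 35 and 194 in the control library against 162 and 106 after knockdown. Junction PSI was 15.3% (11.2 to 20.5) against 60.4% (54.5 to 66.1), higher by 45.2 points (37.2 to 52.1, adjusted p = 1.44e-22 by Fisher's exact test). These reads are those of the left junction, while the right junction held 23 and 15. The rise thus rests on the left junction, and the right one alone did not show it. With the mean of both junctions, to which the left gave most reads, the difference was 36.2 points and the exon passed.

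Clasp2 encodes a protein that tracks growing microtubule ends, and holds 4 members in a row of short exons. Only its 24-nucleotide exon (chr9:113787868-113787891, plus strand, coding, exon 25 of 40) passed the test. It had 94 inclusion and 195 skipping reads in the control and 205 and 109 in the knockdown library, or 32.5% (27.4 to 38.1) against 65.3% (59.9 to 70.3). The difference was 32.8 points (25 to 40, adjusted p = 8.24e-13 by Fisher's exact test). The 18-nucleotide exon had 15 inclusion and 5 skipping reads against 29 and 10, with a difference of -0.641 points between -21.4 and 23.9, so these reads could not show a change in either direction. SpliceTrap's own PSI for that exon was 60.1% against 74.7%. The exon of 27 nucleotides at chr9:113771554-113771580 had 3 and 12 inclusion reads and 0 skipping reads, and its PSI of 26.2% against 99.9% therefore rests on no skipping junction. The last, at chr9:113774204-113774230, had 0 inclusion reads and 1 skipping read in the control library and 1 of each in the knockdown library.

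Ssr1 encodes the alpha subunit of the translocon-associated protein complex of the endoplasmic reticulum, a general component of secretion and not a gene known for neuronal function. Its 15-nucleotide exon (chr13:38074964-38074978, minus strand, coding, exon 8 of 9) held more skipping reads than any other member. The counts were 276 inclusion and 1268 skipping reads in the control against 370 and 506 in the knockdown library. Inclusion remained the minor form in both, at 17.9% (16 to 19.9) and 42.2% (39 to 45.5), with a difference of 24.4 points (20.6 to 28.1, adjusted p = 3.83e-34 by Fisher's exact test). The same skipping junction held up to 1792 and 751 reads in other trios. With every junction counted at its largest, inclusion was 13.3% (11.9 to 14.9) against 32.8% (30.2 to 35.6). The log2 FPKM ratio of the gene was -0.67, near the lower end of all genes (9.92% of genes were at or below it).

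**Figure D2:**
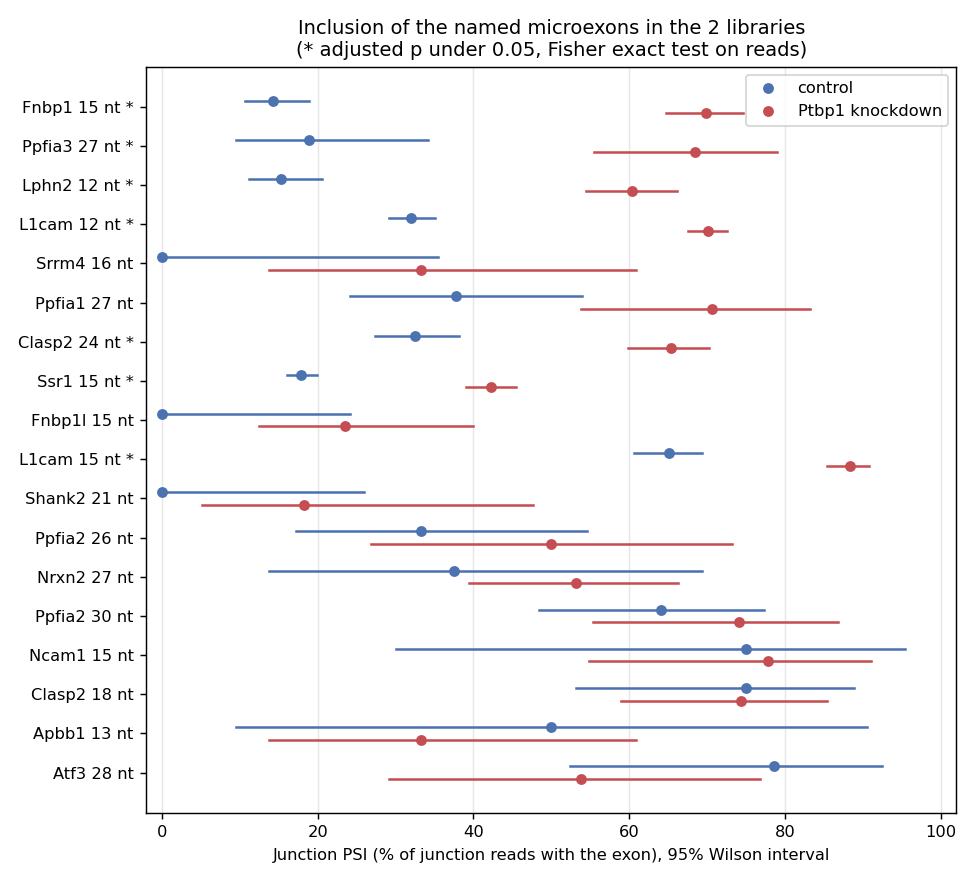
Junction PSI (x axis, % of junction reads that include the exon) of the 18 named microexons in the control library (blue) and the Ptbp1 knockdown library (red), points with 95% Wilson intervals, ordered by the difference. The 7 exons marked with a star have separate intervals in the 2 libraries, and the 11 without a star have intervals that overlap.

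Other named members had few reads, and none of the following passed the test after adjustment. The 16-nucleotide exon inside Srrm4, the microexon activator itself, is not in the GENCODE annotation, and had 0 inclusion and 7 skipping reads in the control library against 4 and 8 in the knockdown library (33.3 points, -7.12 to 60.9). The 21-nucleotide exon of Shank2, a scaffold of the postsynaptic density, had 0 and 11 reads against 2 and 9 (18.2 points, -10.8 to 47.7). Both exons had no inclusion read at all in the control library. The 27-nucleotide exon of Nrxn2, a presynaptic adhesion molecule, had 3 and 5 reads against 26 and 23 (15.6 points, -19.2 to 42.8). The 15-nucleotide exon of Ncam1, a neural adhesion molecule, had 3 and 1 reads against 14 and 4 (2.78 points, -28 to 49.6), although SpliceTrap gave a PSI of 8.9% against 33%. The unannotated 13-nucleotide exon of Apbb1, an adaptor of the amyloid precursor protein, had 1 and 1 reads against 4 and 8 (-16.7 points, -61.7 to 32.4), while its PSI was 2.7% against 6.5%.

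A list of 71 genes known for neural microexons, drawn up from background knowledge, had a member in 13 genes and 23 members in all. Of these, 8 had 5 skipping reads, 6 of the 8 were higher by 5 points of PSI, 0 were lower, and 1 (Clasp2, 24 nucleotides) passed the test. The 8 hold both overlapping Ppfia2 exons, which share their skipping reads. Of all constitutive-class exons with 5 skipping reads, 4.76% were higher, 7.26% lower and 0.52% passed upward. Of the other 15, 11 had no skipping read, and 10 of these 11 stood at a PSI of 99.9 in both libraries, as did, to name 1, the 5-nucleotide exon of Nbea, a scaffold of membrane traffic, with 141 and 113 inclusion reads. Part of the listed microexons thus had no detectable skipped form on the trio's junction in either library. The list was drawn up with earlier results of these data known.

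Of the 25 members with 5 skipping reads that were higher by 5 points, 18 did not pass the test, and in 17 of the 18 the junction reads pointed the same way. One of them, named after its values were seen, was the 24-nucleotide exon of Trim9, a ubiquitin ligase of neurons, with 19 inclusion and 7 skipping reads in the control against 24 and 3 after knockdown (15.8 points, -5.68 to 36.3). In the other direction, the 4 members lower by 5 points were those in Atf3, Ccdc163, Zfp62 and Mapk12, of which the first 3 are not coding in the annotation. The 28-nucleotide exon of Atf3, a stress-induced transcription factor, had 11 inclusion and 3 skipping reads against 7 and 6 (-24.7 points, -53 to 10.1). The Mapk12 exon, which is coding, had 163 and 39 reads against 110 and 37 (-5.86 points, -14.9 to 2.85). On the trio's junctions, none of the 4 had an interval clear of 0. With every junction counted, the Ccdc163 exon was at 56.9% against 29.4% (-27.5 points, -45.3 to -5.87), and it did not pass by Fisher's exact test (unadjusted p = 0.0155, adjusted p = 0.214), while the intervals of the other 3 held 0.

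Other well-covered members were skipped in part in both libraries and did not pass the test, and the following were picked after their values were seen. The 24-nucleotide exon of Acaca (chr11:84103790-84103813, plus strand, coding) had 202 inclusion and 49 skipping reads in the control and 121 and 40 in the knockdown library, 80.5% against 75.2%. The difference of -5.32 points had an interval from -13.8 to 2.74, so its upper end was a rise of 2.74 points. The 27-nucleotide exon of Myef2, myelin expression factor 2, had 25 and 72 reads against 18 and 62 (-3.27 points, -15.6 to 9.55).

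Shorter exons moved more often. Among members of 15 nucleotides or less with 5 skipping reads, 9 of 19 (47.4%) were higher by 5 points and 5 (26.3%) passed the test. Among those of 16 to 30 nucleotides, 16 of 88 (18.2%) were higher and 2 (2.27%) passed. In constitutive-class exons of 31 to 60 nucleotides 5.54% were higher and 0.946% passed upward, while 8.78% were lower. These shares are over exons of the same 2 libraries and were not tested against each other.

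**Figure D3:**
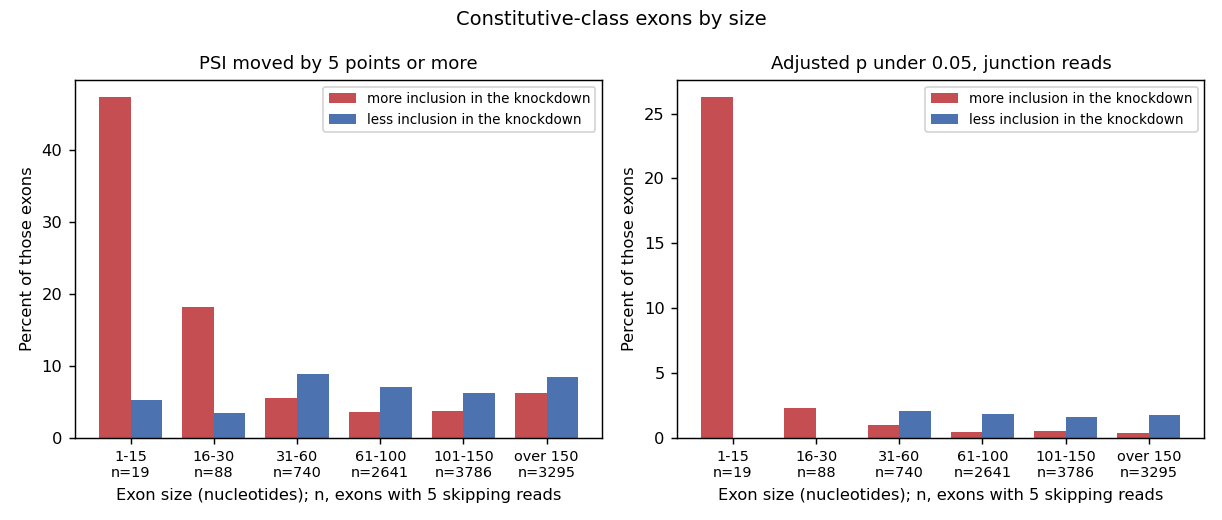
Percent of constitutive-class exons with 5 or more skipping reads (y axis) that had more (red) or less (blue) inclusion in the Ptbp1 knockdown library, by exon size in nucleotides (x axis), for a PSI change of 5 points or more (left) and for an adjusted Fisher p under 0.05 on junction reads (right). Red exceeds blue in both bins up to 30 nucleotides, and blue exceeds red in every bin above, and the number of exons (n) is 19 in the shortest bin and 3295 in the longest. The bins started at unlike inclusion, with a median control PSI of 41.7 in the shortest and 98.4 in the longest.

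The 7 exons that rose have sizes that keep the reading frame. All 7 that passed the test had a size divisible by 3, as did 22 of the 25 higher by 5 points (88%) and 40 of the other 82 with 5 skipping reads (48.8%). Over all members the share was 47.5%, and over longer constitutive-class exons 38.2%. Of the 7, 6 are coding, and GENCODE has a skipping transcript for 5, all but those of Lphn2 and Clasp2.

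The introns upstream of these exons were rich in pyrimidines. In the 100 intron bases before the exon, the median share of C and T was 68% for the 7. It was 62% for the 25 higher by 5 points, which include the 7. The share was 58% for the other 82, 59% for all 107, 57% for all members and 55% for constitutive-class exons over 30 nucleotides. The Fnbp1 and Ppfia3 introns, at 73%, were at or above 98.9% of all constitutive-class exons. The 12-nucleotide L1cam exon was the lowest of the 7 at 58.9%, over an intron shorter than 100 bases. The tract also lay at another distance. Of the bases 21 to 30 upstream of the 7 exons 92.9% were pyrimidines, against 58.7% for the longer exons, whereas of the last 10 bases before the exon 45.7% were, against 63.5%. As the printed sequences show, the purines next to the splice site of Fnbp1 (cacgaag) and Lphn2 (aaaatagaag) interrupt the tract just before the exon.

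**Figure D4:**
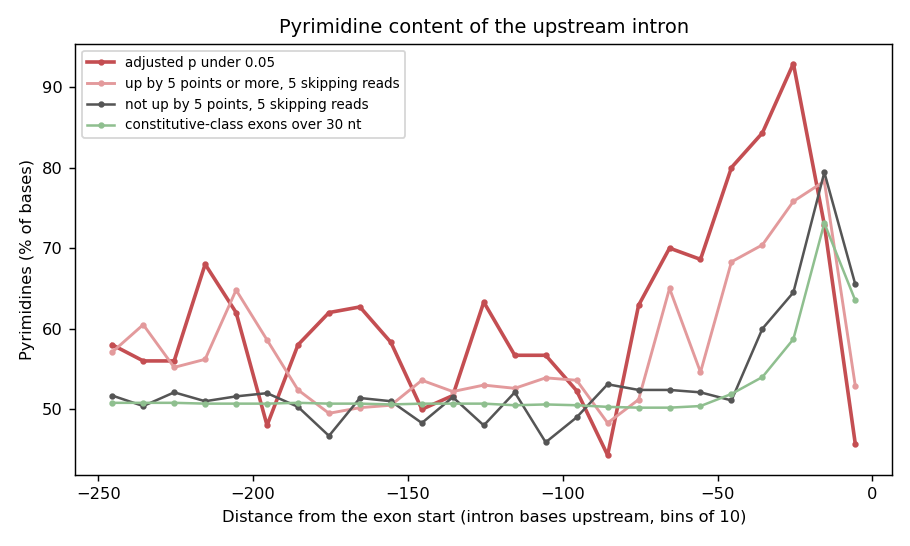
Percent of pyrimidines (y axis) in bins of 10 intron bases by distance upstream of the exon (x axis, bases) for the 7 members with an adjusted p under 0.05, the 25 with 5 skipping reads that were higher by 5 points of PSI, the 82 with 5 skipping reads that were not, and constitutive-class exons over 30 nucleotides. Of the 4 groups, the 7 exons stand highest from 21 to 80 bases upstream and lowest in the last 10 bases. The 25 include the 7.

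Short motifs were counted on the transcribed strand only. TCTCT, which PTBP1 is known to bind, occurred within 100 bases upstream of 5 of the 7 exons (71.4%) and 12 of the 25 (48%). It occurred in 34 of the other 82 (41.5%), 37.3% of all members and 28.2% of all constitutive-class exons. The longer CTCTCT, each copy of which also holds TCTCT, occurred in 3 of the 7 (42.9%) and 4 of the 25 (16%). Its share was 14.6% in the other 82, 13.8% in all members and 9.66% in all constitutive-class exons. TGC, a letter triplet bound by SRRM4, occurred within 30 bases upstream of 5 of the 7 (71.4%) and 14 of the 25 (56%). It occurred in 42.7% of the other 82, 41.6% of all members and 43.2% of all constitutive-class exons. TGCATG, the motif of the Rbfox proteins, occurred within 100 bases downstream of 3 of the 7 (42.9%), those of Fnbp1, Ppfia3 and Ssr1, and of 4 of the 25 (16%), of 0 of the other 82, and of 4.01% of all. The 25 include the 7, so their shares are not separate. Of the 25, 12 held TCTCT and 14 held TGC, and 5 in each case were among the 7. Of the 4 with CTCTCT, and likewise of the 4 with TGCATG, 3 were among the 7. All motif counts are matches of letters in exons picked by their change, and binding was not measured here.

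A wider count of junctions, added after the data had been seen, brought out members whose skipped form leaves out more than the microexon. Here every database junction across the exon counted as skipping. Inclusion was every junction that ended at the exon on the side, left or right, with more reads over both libraries. By this count 173 members had 5 skipping reads, 13 had more inclusion in the knockdown library (7.51%, against 0.835% of all tested) and 0 had less (against 1.73%). The 13 held the 7 above and exons in Dctn1, Psap, Sh3glb1, 4933421E11Rik, Bin1 and Eef1d, which are named here after their values were seen.

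The change in Dctn1, the large dynactin subunit p150Glued that tethers dynein to microtubules, was of the size of the largest above. Its 21-nucleotide exon (chr6:83137758-83137778, plus strand, coding, exon 7 of 32) is on the list of neural microexon genes, and its trio junction held too few skipping reads for the test above.

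Dctn1 21: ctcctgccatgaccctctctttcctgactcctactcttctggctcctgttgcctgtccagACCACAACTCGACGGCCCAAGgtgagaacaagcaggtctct

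This intron resembles those of the 7, with 46 of the 60 upstream bases pyrimidines. A junction outside the trio, which leaves out 3 middle exons of the database, held 139 reads in the control and 55 in the knockdown library, whereas the trio's own skipping junction held 2 and 0. With every junction counted, inclusion was 15 reads against 141 across in the control and 72 against 56 in the knockdown library, 9.62% (5.91 to 15.3) against 56.2% (47.6 to 64.5). The difference was 46.6 points (36.3 to 55.7, adjusted p = 4.61e-15 by Fisher's exact test).

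The other 5 were higher by 13.8 to 18.9 points. The 24-nucleotide exon of Sh3glb1, endophilin B1, a membrane-bending protein, had 78 inclusion reads against 738 across it in the control and 107 against 276 in the knockdown library, 9.56% against 27.9%. These inclusion reads are those of the left junction. The junctions on the right of the exon held 70 and 10 reads in the control and 38 and 18 in the knockdown library. Both percentages thus rest on the left side. The trio had put the same exon at a PSI above 99 in both libraries, and 737 and 275 of the reads across it lay on a junction that leaves out 2 exons. The 5-nucleotide exon of Psap, the precursor of the saposins of the lysosome, had 1287 against 2381 and 2089 against 1781, 35.1% against 54%. This Psap exon is not in the GENCODE annotation. Its junction out held 87 and 162 reads and ended at chr10:59761842, while the junction across it with the most reads ended at 59761846. In Bin1, a membrane-shaping protein, the 24-nucleotide exon was at 24.2% against 38.9%. The exon in 4933421E11Rik shares its end with a longer cassette-class exon, and its 128 and 194 inclusion reads all lie at that end. On its left side there were 2 and 3 reads, too few to show a rise of the microexon itself. The 15-nucleotide exon of Eef1d, a translation elongation factor, lies outside the coding sequence and was at 19.7% against 33.5%, in a Cufflinks gene joined to neighbours. Its 331 and 410 inclusion reads are those on the left of the exon. On the right there were 4 and 2 reads, against 1353 and 814 across it. The rise thus rests on the left side, and the right side did not show it.

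**Figure D5:**
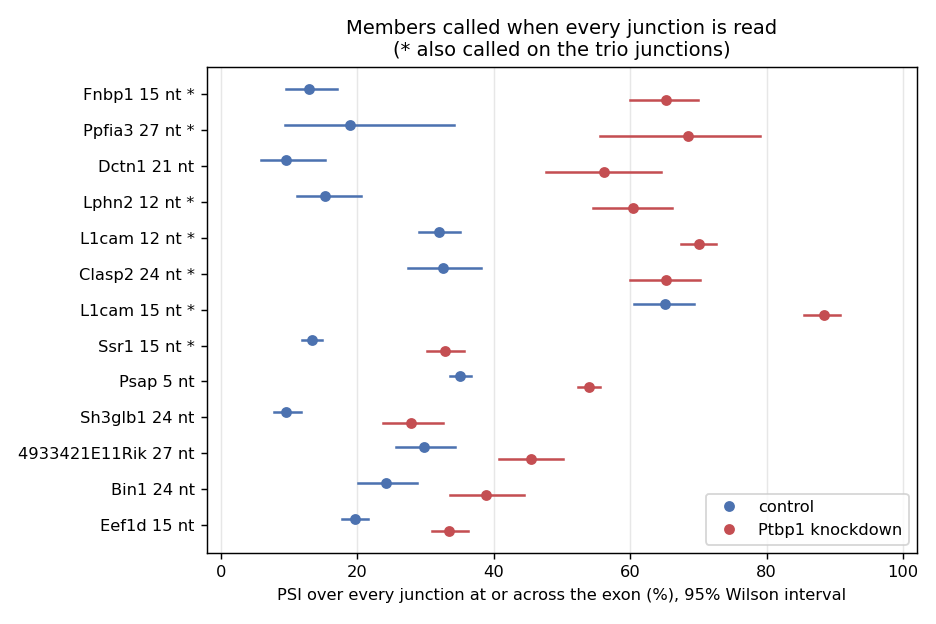
Inclusion over every database junction at or across the exon (x axis, %) for the 13 members with an adjusted p under 0.05 by that count, in the control library (blue) and the Ptbp1 knockdown library (red), points with 95% Wilson intervals. All 13 red points lie to the right of the blue ones without overlap of their intervals, and the 7 with a star also passed on the trio's own junctions. Inclusion was read on the side of the exon with more reads, and for Eef1d and 4933421E11Rik the other side held few reads.

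Where the skipping junction held few reads, SpliceTrap's PSI could move without support. Of the 41 members higher by 5 points, 16 had fewer than 5 skipping reads, and 4 had none, and of the 12 lower by 5 points 8 had fewer than 5. The 4-nucleotide exon of Acap3 went from a PSI of 3.2% to 99.9% with 0 inclusion and 0 skipping reads on its trio's junctions in both libraries and 0 against 1 read on the exon. The 24-nucleotide exon of Ncrna00085 went the other way, from 99.9% to 14.7%, with 0 inclusion reads against 1. Both were named after their values were seen. In 13 members PSI was 0 in both libraries without a single skipping read and with 48 to 6658 inclusion junction reads, among them the 30-nucleotide exon of Hmgn2, a nucleosome-binding protein with 3774 and 2884 inclusion reads. For such exons PSI and junction reads go against each other. Inclusion reads also fell unevenly on the junctions of so short an exon, with 86.7% on the left one in the control library against 52.3% for exons over 30 nucleotides, so the junction with more reads stood for inclusion.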

How the data were processed

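RNA of 1 control and 1 Ptbp1 knockdown library of N2A cells was sequenced by the authors. The submitters' processing notes name CASAVA, TopHat, Cufflinks and mm9, and the exon tables are from SpliceTrap; versions were not given in the sources used here. The authors deposited, for each trio of exons, inclusion ratios as a fraction (before and after SpliceTrap's correction), whole-number junction read counts, coverage as a signal per 100 nucleotides, and exon sizes. Their deposited Cufflinks tables hold FPKM on an unusually high scale, so ratios between libraries were used, with a pseudocount of 1.

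Trio reads were computed from coverage and size, with a minimum of 20 in each library. PSI is the corrected ratio times 100. Junction reads were compared by Fisher's two-sided exact test for exons with 5 or more skipping reads over both libraries, with Benjamini-Hochberg adjustment over 10569 constitutive-class exons, Wilson intervals for shares and Newcombe intervals for differences. The script was tested on simulated data. Exon annotation was from GENCODE vM1 (NCBIM37), with intron sequence for 646 of 649 members and 107038 of 107173 exons. Gene names were taken from the annotation and a RefSeq table. Named exons were those with an adjusted p under 0.05, the 5 others with the largest change of junction PSI among members with 5 skipping reads, the 5 with the most skipping reads, and members of the neural list with 5 skipping reads; others are said to be chosen after their values were seen. The members and lists were chosen with earlier results of these data known. The alternatives in the closing section changed the read minimum, size limit, skipping minimum, inclusion measure, threshold, window and FPKM scaling. Python 3.11.15, pandas 2.3.3, numpy 2.4.6 and scipy 1.17.1 were used.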

Additional observations from a re-analysis of the deposited data

How the results depend on the processing

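No paired analysis was possible because each group holds 1 library, and no library could be left out. The 7 exons that passed the test kept their call and direction in 49 of 49 alternative values, and the other 11 named exons stayed below the threshold in 69 of 69. Many of these values were no separate check. A minimum of 1, 10 or 20 skipping reads left each named exon's difference unchanged and altered only the set adjusted over. The mean over trios also returned the same difference for each. Every junction did so for Clasp2 (24 nucleotides), Lphn2, Ppfia3 and both L1cam exons. Only other counts of inclusion or skipping reads could move a difference. Of the counts, 107 members with 5 skipping reads became 278 with a minimum of 1 such read and 40 with 20, and the median PSI change of 0.1 points was 0.7 with a minimum of 10 and 1.15 with 20. The 12 members with PSI lower by 5 points became 6 among exons of 27 nucleotides or less and 25 with the ratio before correction. The count of 0 with less inclusion became 1 (Ppig, 30 nucleotides, named after its values were seen) when every constitutive-class trio of an exon was averaged. With every junction at or across the exon, chosen after seeing the data, 173 members had 5 skipping reads and 13 instead of 7 had more inclusion. The log2 ratio of Ptbp1 was -1.61, and -1.41 with FPKM divided by the library median. That division came before the pseudocount of 1, which weighs more on the resulting values of 15.5 and 5.22. The median upstream pyrimidine share of the 107 members, 59% over 100 bases, was 54.4% over 250 and 64% over 50 bases. The cause of the other shifts was not tested. Junction counts limit the members with few reads: differences among them were not detectable at this depth.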

Other observations

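The microexons that SpliceTrap's database lists as cassette exons, 341 by the same minimum of reads, were the most like set. Of the 308 with 5 skipping reads, 51.6% were higher by 5 points of PSI and 7.14% lower, and by Fisher's exact test with Benjamini-Hochberg adjustment 117 had more and 6 less inclusion in the knockdown library. The values for constitutive-class microexons were 23.4% higher and 3.74% lower, with 7 having more and 0 less inclusion by Fisher's exact test. Those calls were adjusted over constitutive-class exons alone, so the adjusted counts of the classes rest on unlike sets. At an unadjusted Fisher p under 0.05, 138 cassette-class microexons had more and 12 less inclusion, against 10 and 6 of the constitutive class. The classes also started apart, with a median control PSI of 20.3 against 94.9 among those with 5 skipping reads. No share over all cassette-class exons is given here. The difference between the classes was not tested.

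Among members without a skipping read, 90% had GT and AG at the ends of their introns (332 of 369 with sequence), against 98.6% of constitutive-class exons over 30 nucleotides and 99.1% of the 107 members with 5 skipping reads. Of all members, 89 are not in the GENCODE annotation, 532 are coding, 9 partly coding and 19 not coding.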
